A study of Homo sapiens with 15 samples.

Results

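Mitophagy receptors are proteins that tie a mitochondrion to the autophagy machinery so that it is degraded, and PINK1 is the kinase that marks damaged mitochondria for the same fate. The genes described are the receptors BNIP3, BNIP3L, FUNDC1, BCL2L13, PHB2, FKBP8, OPTN, CALCOCO2 and TAX1BP1, together with PINK1. They were taken as the array probes, controls excluded, whose RefSeq accession belongs to 1 of these 10 genes. In all, 9 of the 10 genes were matched to a probe, of 19483 genes matched on the array, and they carried 12 probes. The accessions that the reference table lists for PHB2 matched no probe, so PHB2 was not analysed here.

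The study compared cytoglobin expressing cells (CYGB+) with non-cytoglobin expressing cells (NCE) of the PE/CA-PJ41 line, an immortalised oral squamous carcinoma line. CYGB+ cells carried the pCMV6-Neo plasmid with the human cytoglobin cDNA, integrated stably and picked by cloning ring under G418, and per the study's methods they were 1 clone, LST421. NCE cells carried the empty vector (mock) per the sample labels, while the study's text for other assays also calls its control cells un-transfected, and which applies to these arrays cannot be told apart here. Both were cultured for 24 h in supplemented medium, with no other treatment, before total RNA was extracted on 3 occasions and hybridised to Agilent 8x60K expression arrays. Since CYGB+ is 1 clone, the effect of cytoglobin and the effect of that clone's own history cannot be told apart.

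There were 3 biological replicates in each group, with 3 array repeats of each NCE replicate (9 arrays) and 2 of each CYGB+ replicate (6 arrays). Values are log2 green signals after quantile normalisation, averaged over the array repeats of a biological replicate, and a difference is CYGB+ minus NCE on that log2 scale. Slide 1 held 8 NCE arrays, while slide 2 held 1 NCE array (replicate 1, array repeat 3) and all 6 CYGB+ arrays, so the slide moved with the group. A fit of the single arrays with the slide as a block is given beside the results, and its slide term rests on that 1 NCE array. Array repeat 1 of CYGB+ replicate 1 stood apart from the rest, with a median correlation of 0.905 to the other arrays against 0.953 to 0.978 for the other 14. Values without it stand beside the member and list results below. Of the squamous epithelium markers, 8 of 8 were well above background on all arrays. Of 7 fibroblast markers 2 were, of 3 leukocyte markers 1 was, and none of 3 endothelium markers was. Among these marker lists only COL1A2, a collagen chain, passed the test, at -2.54 (SE 0.21, adjusted p = 0.0022) and at -2.51 without that array. Without that array EPCAM (-0.56, adjusted p = 0.0495) and FAP (0.79, adjusted p = 0.0105) passed as well. Their part in the results below was not tested.

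The transfected gene did not separate the groups on the array. The single CYGB probe read 12.87, 13.16 and 12.94 in NCE replicates 1 to 3 and 12.37, 13.45 and 13 in CYGB+ replicates 1 to 3. The difference was -0.05 (SE 0.28, adjusted p = 0.928). The probe was well above background on all 15 arrays, NCE included, whereas the study describes the parent line as not expressing cytoglobin. The reason for this conflict was not tested. Where that probe lies on the transcript is not given in the sources used here, and a probe outside the cloned cDNA would check nothing, so the directions below follow the sample labels alone.

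BNIP3 and BNIP3L (also called NIX) sit in the outer mitochondrial membrane and bind LC3 and GABARAP proteins directly through a short motif facing the cytosol. Both are known targets of the hypoxia-inducible factors. FUNDC1, BCL2L13 and FKBP8 are outer membrane receptors that bind the same partners, whereas OPTN, CALCOCO2 (NDP52) and TAX1BP1 are soluble adaptors that read the ubiquitin chains laid down on mitochondria marked by PINK1.

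BNIP3L was the member gene that changed, and it was down-regulated in CYGB+ cells on both of its probes, which both target NM_004331. Probe A_23_P134925 read 10.74, 10.91 and 11.15 in NCE replicates 1 to 3 and 9.74, 9.74 and 9.90 in CYGB+ replicates 1 to 3. Every CYGB+ replicate was below every NCE replicate, and the spread within NCE was wider (SD 0.21, n = 3) than within CYGB+ (SD 0.09, n = 3). The difference was -1.14 (SE 0.17, 95% interval -1.53 to -0.75, adjusted p = 0.0104), which is 2.20-fold lower. Probe A_33_P3396951 read 9.42, 9.52 and 9.51 in NCE and 8.48, 8.74 and 8.55 in CYGB+. Here too the groups did not overlap, but the spread within NCE was narrower (SD 0.06) than within CYGB+ (SD 0.13). The difference was -0.89 (SE 0.15, 95% interval -1.24 to -0.54, adjusted p = 0.0154), which is 1.86-fold lower. In RNA from whole cultures, less transcript in each cell and fewer cells with the transcript cannot be told apart.

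The gap between the groups was visible on single arrays and on the slide that held both groups. On A_23_P134925 the 8 NCE arrays of slide 1 ran from 10.73 through a median of 10.93 to 11.40, the NCE array of slide 2 read 10.62, and the 6 CYGB+ arrays ran from 9.64 through 9.80 to 9.95. On A_33_P3396951 the same sets ran from 9.26 through 9.51 to 9.65, at 9.40, and from 8.29 through 8.57 to 8.89. The lone NCE array of slide 2 therefore lay above all 6 CYGB+ arrays that shared its slide. With the slide as a block the differences were -0.89 (SE 0.21, adjusted p = 0.0299) and -0.83 (SE 0.21, adjusted p = 0.0417). With slide 2 alone they were -0.83 and -0.81, and neither passed the test (adjusted p = 0.44 and 0.464), a fit in which NCE had 1 array.

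**Figure D1:**
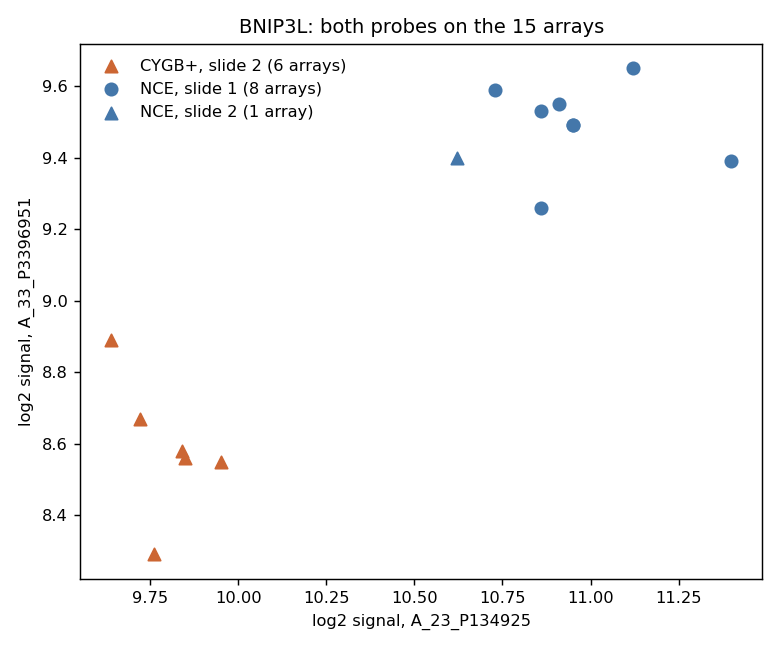
Signals of the 2 BNIP3L probes on the 15 arrays. The x axis is the log2 green signal of A_23_P134925 and the y axis that of A_33_P3396951, each point is 1 array, colour marks the group and shape the slide, and 2 NCE arrays of slide 1 coincide. All 6 CYGB+ arrays sit at or below 9.95 and 8.89, and the NCE array of slide 2 (10.62 and 9.40) sits with the other NCE arrays.

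The array that stands apart did not carry the BNIP3L result. On that array A_23_P134925 read 9.76 against 9.72 on the repeat of the same RNA, and A_33_P3396951 read 8.29 against 8.67. Without it the differences were -1.15 (adjusted p = 0.0046) and -0.83 (adjusted p = 0.0063). The calls did depend on the number of replicates. For A_23_P134925 the adjusted p was 0.052 without NCE replicate 2 and 0.0505 without NCE replicate 3. For A_33_P3396951 it was 0.0519, 0.0778 and 0.0737 without NCE replicates 1, 2 and 3 and 0.0511 without CYGB+ replicate 3. Over all single replicates left out, the 2 differences stayed between -1.24 and -1.03 and between -0.97 and -0.84.

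The change was not shown to differ between the 2 probes. Within each replicate, A_23_P134925 minus A_33_P3396951 was 1.32, 1.38 and 1.64 in NCE and 1.26, 1.00 and 1.35 in CYGB+. The groups overlapped, and the change differed between the probes by -0.25 (two-sided exact permutation test, p = 0.2, adjusted p = 0.4 over 4 probe pairs). With 3 against 3 the smallest p this test can give is 0.1, so no difference of any size could be called by it. On slide 2 alone the probes differed by -0.02.

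Set against the whole array, 2 of the 12 member probes were called lower in CYGB+ and none higher. Of all 22186 probes tested, 4.36% were called lower and 4.80% higher. With the slide as a block the same 2 probes were the ones called, where 1.78% of probes were called lower and 1.34% higher. By the range of the replicates, 2 member probes lay wholly below NCE in CYGB+ and 3 wholly above (BCL2L13 A_23_P102965 and A_24_P409494, and OPTN), while 17.1% of all probes lay wholly below and 16.6% wholly above. All 12 probes passed the filter on dim probes, and 11 were well above background on all 15 arrays. BCL2L13 A_24_P410389 was so on 14.

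**Figure D2:**
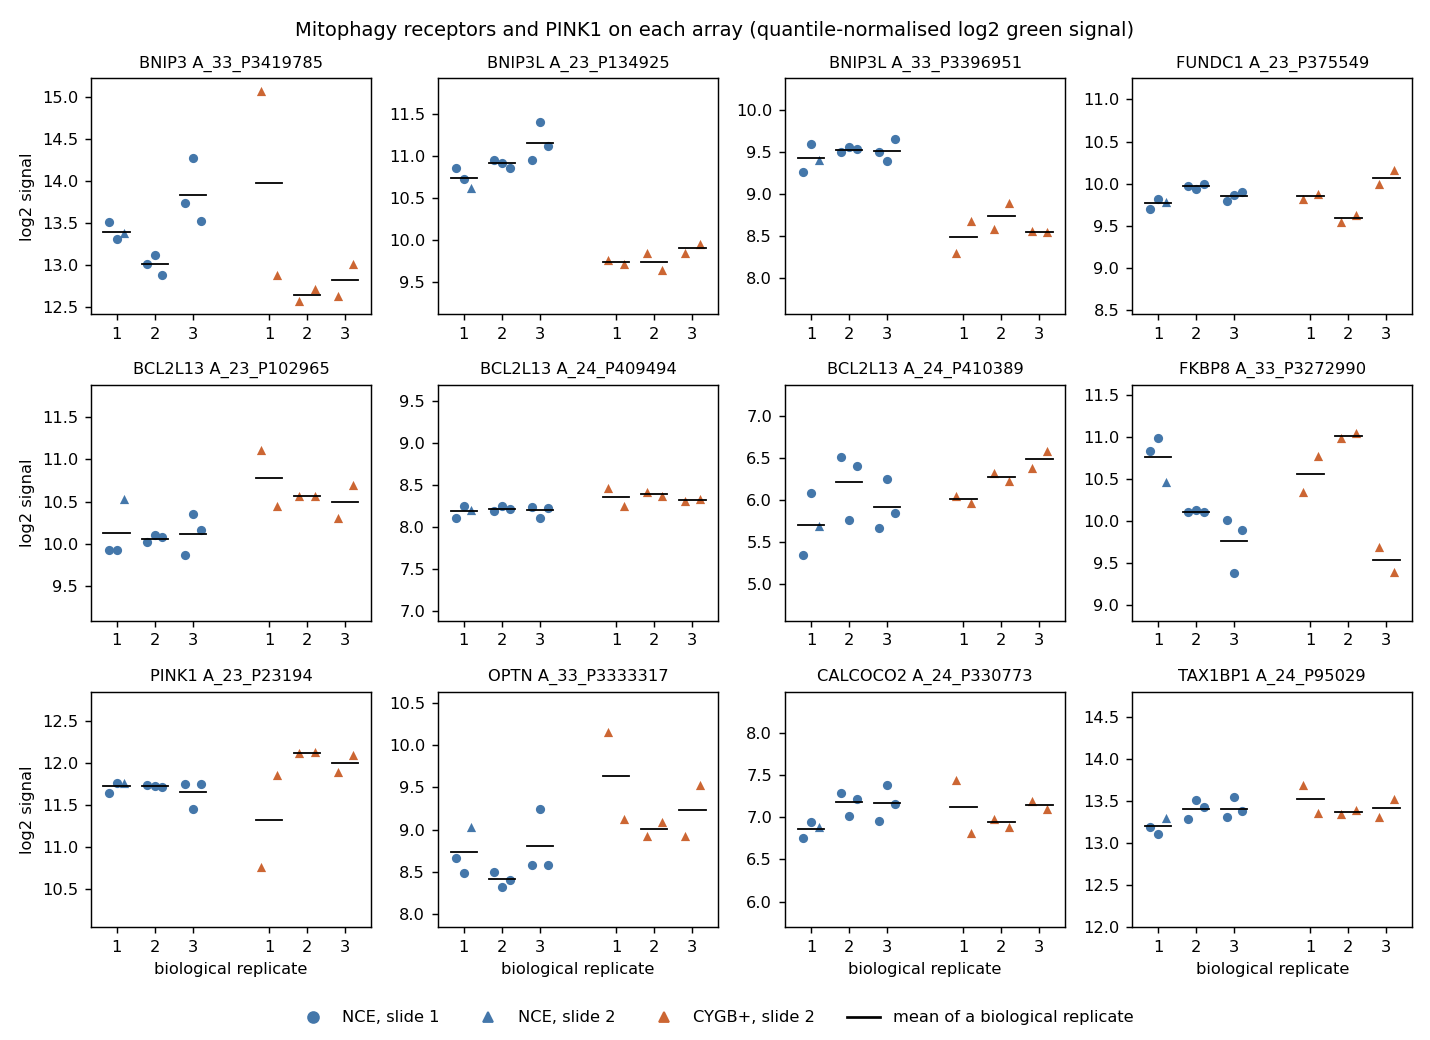
Log2 green signal of the 12 member probes on each array, 1 panel a probe, with the 3 biological replicates of NCE (blue) and then of CYGB+ (orange) along the x axis. Circles are slide 1 and triangles slide 2, bars are the means of the biological replicates, and each panel has its own y range. BNIP3L separates the groups on both probes, and BNIP3 and PINK1 each show 1 CYGB+ array, at 15.07 and 10.77, far from the other 5.

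BNIP3, the close relative of BNIP3L, was not called, and 1 array decided its value. Probe A_33_P3419785 read 13.40, 13.01 and 13.84 in NCE and 13.98, 12.65 and 12.82 in CYGB+. CYGB+ replicate 1 was the highest of the 6 and the other CYGB+ replicates were the lowest. The difference was -0.27 (SE 0.38, 95% interval -1.16 to 0.62, adjusted p = 0.684). Within CYGB+ replicate 1, array repeat 1 read 15.07 and array repeat 2 read 12.88, although both carried the same biological replicate. Without array repeat 1 every CYGB+ replicate was below every NCE replicate, at a difference of -0.64 (SE 0.22, adjusted p = 0.0869), and with the slide as a block as well it was -0.61 (SE 0.35, adjusted p = 0.344).

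The BNIP3 promoter is shown because BNIP3 and BNIP3L share the hypoxia-inducible factors as known regulators. The 250 bases before the RefSeq start of BNIP3 (GRCh38.p14, chr10:131981924-131982173, minus strand) read, 5′ to 3′ with the letters ACGTG in capitals on either strand, as follows.
BNIP3: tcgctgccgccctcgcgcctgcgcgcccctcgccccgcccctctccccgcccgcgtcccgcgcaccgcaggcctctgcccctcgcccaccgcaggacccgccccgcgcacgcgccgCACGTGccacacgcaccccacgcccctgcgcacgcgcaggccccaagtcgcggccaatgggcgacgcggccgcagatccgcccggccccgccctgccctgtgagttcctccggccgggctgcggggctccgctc
ACGTG is a form of the core of the hypoxia response element, and other forms were not counted. The match is a single CACGTG, which holds ACGTG on both strands and overlaps itself. ACGTG lay in 18.5% of the 35116 promoter windows of the same length in the RefSeq table and in 2 of the 12 windows of member genes (BNIP3 and CALCOCO2), which covered 7 of the 10 genes. BNIP3L, PINK1 and FKBP8 had no entry.

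FUNDC1, a receptor known for mitophagy in low oxygen, was near equal in the groups. Probe A_23_P375549 read 9.77, 9.97 and 9.85 in NCE and 9.85, 9.59 and 10.07 in CYGB+. The groups overlapped, with a difference of -0.03 (SE 0.18, 95% interval -0.44 to 0.39, adjusted p = 0.943).

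BCL2L13, a BCL2-family receptor that resembles yeast Atg32, had a higher mean in CYGB+ on all 3 of its probes, and none was called. Probe A_23_P102965, printed on 10 spots of each array, read 10.13, 10.06 and 10.12 in NCE and 10.78, 10.57 and 10.50 in CYGB+. The groups did not overlap, and the difference was 0.51 (SE 0.15, adjusted p = 0.0776). Slide and group cannot be told apart for this gap. The slide term was called for 0 probes of the whole array, but it rests on the lone NCE array of slide 2, so that count cannot decide the question. The NCE array of slide 2 read 10.53, above the 9.86 to 10.35 of the NCE arrays of slide 1, and 0.60 above the other arrays of its own biological replicate. With the slide as a block the difference was 0.05 (SE 0.26, adjusted p = 0.985). It passed the test without the array that stands apart (0.40, adjusted p = 0.0493), and with the slide as a block as well it was -0.07 (adjusted p = 0.872). Probes A_24_P409494 and A_24_P410389 differed by 0.16 (SE 0.14, adjusted p = 0.501) and 0.31 (SE 0.20, adjusted p = 0.368), and for both the NCE array of slide 2 was within 0.02 of the other arrays of its replicate. Within each replicate, A_23_P102965 minus A_24_P409494 was 1.94, 1.85 and 1.93 in NCE and 2.42, 2.17 and 2.18 in CYGB+. The replicates did not overlap (two-sided exact permutation test, p = 0.1, the smallest possible, adjusted p = 0.4 over all probe pairs). On slide 2 the NCE array read 10.53 and 8.20 on these probes, and the CYGB+ arrays ran from 10.31 to 11.11 and from 8.25 to 8.47. The other pairs of BCL2L13 probes overlapped between the groups.

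FKBP8, an immunophilin-like receptor that also binds BCL2, varied more between replicates than between groups. Probe A_33_P3272990 read 10.76, 10.11 and 9.76 in NCE and 10.56, 11.01 and 9.54 in CYGB+. Replicate 3 was the lowest in both groups, and the difference was 0.16 (SE 0.41, 95% interval -0.79 to 1.12, adjusted p = 0.834).

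PINK1 was not called. Probe A_23_P23194 read 11.73, 11.73 and 11.66 in NCE and 11.32, 12.12 and 12 in CYGB+. CYGB+ replicates 2 and 3 were above all NCE replicates and the one with the array that stands apart was below them. The difference was 0.11 (SE 0.23, 95% interval -0.43 to 0.65, adjusted p = 0.795). In CYGB+ replicate 1, array repeat 1 read 10.77 and array repeat 2 read 11.86. Without the former all CYGB+ replicates lay above NCE, at 0.29 (SE 0.12, adjusted p = 0.149).

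Of the ubiquitin-reading adaptors none was called. OPTN probe A_33_P3333317 read 8.73, 8.41 and 8.80 in NCE and 9.64, 9.01 and 9.23 in CYGB+, so the groups did not overlap. Its difference of 0.65 (SE 0.21, 95% interval 0.15 to 1.14) had an adjusted p of 0.1. As with BCL2L13 A_23_P102965, the NCE array of slide 2 was above the other arrays of its replicate, here by 0.46. The OPTN difference was 0.25 (SE 0.40, adjusted p = 0.925) with the slide as a block. In CYGB+ replicate 1, array repeat 1 read 10.16 and array repeat 2 read 9.12. Without the former the difference was 0.47 (adjusted p = 0.0684), and 0.07 (adjusted p = 0.914) with the slide as a block as well. CALCOCO2 read 6.86, 7.18 and 7.17 in NCE and 7.12, 6.94 and 7.15 in CYGB+, and TAX1BP1 read 13.20, 13.41 and 13.41 and then 13.52, 13.37 and 13.42. Both overlapped between the groups, with differences of 0.00 (SE 0.16, 95% interval -0.38 to 0.39, adjusted p = 0.996) and 0.10 (SE 0.15, 95% interval -0.25 to 0.45, adjusted p = 0.714).

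**Figure D3:**
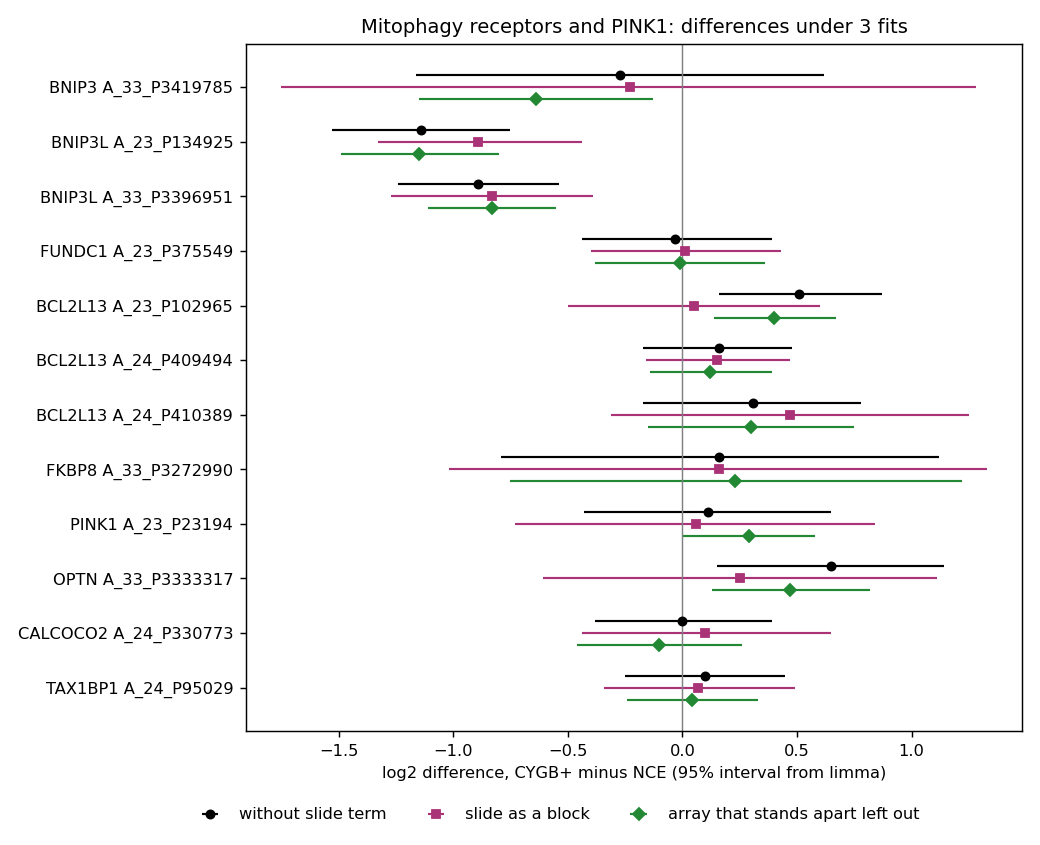
Log2 difference (CYGB+ minus NCE, x axis) of each member probe (y axis) with its 95% interval, from the fit without a slide term (black), with the slide as a block (purple) and without the array that stands apart (green). The BNIP3L intervals lie below 0 in all 3 fits, and those of BCL2L13 A_23_P102965 and OPTN move onto 0 with the slide as a block.

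The genes that act with these receptors were examined as lists of known function. Their counts stand beside the 4.36% of all probes tested that were called lower and the 4.80% called higher. Without the array that stands apart, 1913 of the 22186 probes tested were called lower and 1995 higher. List counts from that fit stand beside these larger numbers. In the PINK1 pathway (import channel subunits, proteases, ubiquitin enzymes and their substrates), 0 of 28 genes tested rose or fell, with a median difference of -0.05. Without the array that stands apart 2 of the 28 rose and 0 fell, with a median of 0.07. In the ATG8 family, the LC3 and GABARAP proteins that the receptors bind, 1 of 5 genes rose. This was GABARAPL1, at 0.64 (SE 0.16, adjusted p = 0.0483), which read 10.87, 10.88 and 11.16 in NCE and 11.69, 11.58 and 11.55 in CYGB+. It was not called with the slide as a block (0.61, adjusted p = 0.139), and without the array that stands apart it was 0.70 (adjusted p = 0.0223). Its adjusted p was 0.059 with the replicate number as a block, a fit in which MAP1LC3A (0.89, adjusted p = 0.0857 without the block) was called instead, at 0.0434. Without the array that stands apart 2 of the 5 genes rose, GABARAPL1 and MAP1LC3A (1.08, adjusted p = 0.006). MAP1LC3A was dim, with means of 3.96 in NCE and 4.85 in CYGB+. Its probe was well above background on only 7 of the 15 arrays, so its calls rest on values near the floor.

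SQSTM1 (p62), the ubiquitin-binding receptor best known for aggregates, rose most of the other autophagy receptors. It read 12.35, 12.32 and 12.30 in NCE and 13.15, 14 and 13.95 in CYGB+, and its difference was 1.38 (SE 0.24, adjusted p = 0.0178), or 2.60-fold. The call was lost with the slide as a block (1.48, SE 0.47, adjusted p = 0.122), and without the array that stands apart it was 1.64 (adjusted p = 0.00074). NIPSNAP2, a matrix protein that is exposed on damaged mitochondria, fell by 0.71 (SE 0.17, adjusted p = 0.0412), with an adjusted p of 0.0519 with the replicate number as a block. It was not called with the slide as a block either (-0.82, adjusted p = 0.122), and without the array that stands apart it was -0.60 (adjusted p = 0.0182). These were the 2 of 10 genes called in that list, whose median was 0.17. In the ULK1 and initiation complex list, 1 of 18 genes rose and the median was 0.11. This was ATG12, the ubiquitin-like protein of the LC3 conjugation enzyme, at 1.09 (SE 0.17, adjusted p = 0.0126), or 2.13-fold. The call was lost with the slide as a block (0.93, adjusted p = 0.0724), and without the array that stands apart it was at 1.03 (adjusted p = 0.0069). Without that array 4 of the 18 genes rose, with a median of 0.15.

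Of 21 regulators of the receptors, 2 fell and none rose, with a median of -0.03. Both encode hypoxia-inducible factors. HIF1A read 12.66, 12.63 and 12.79 in NCE and 11.43, 11.68 and 11.99 in CYGB+, a difference of -1 (SE 0.19, adjusted p = 0.0212), or 2.00-fold lower. EPAS1 (HIF-2 alpha) read 12.53, 12.71 and 12.93 in NCE and 11.48, 11.91 and 12.05 in CYGB+, a difference of -0.91 (SE 0.20, adjusted p = 0.0377). In both genes every CYGB+ replicate lay below every NCE replicate. With the slide as a block HIF1A was called at -1.33 (SE 0.30, adjusted p = 0.023), and EPAS1 was not (-0.62, adjusted p = 0.379). Without the array that stands apart both were called, HIF1A at -0.92 (adjusted p = 0.0076) and EPAS1 at -0.77 (adjusted p = 0.0141). In that fit 3 of the 21 regulators fell and 1 rose.

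Of 21 other known hypoxia factor targets, 5 fell and 1 rose, with a median of -0.24, against a median of -0.01 over all probes. PDK1, a pyruvate dehydrogenase kinase, read 8.93, 8.72 and 9.25 in NCE and 7.71, 7.73 and 7.95 in CYGB+, a difference of -1.17 (SE 0.19, adjusted p = 0.0132). P4HA1, a collagen prolyl hydroxylase subunit, read 10.91, 11 and 11.02 in NCE and 9.63, 9.76 and 9.81 in CYGB+, a difference of -1.24 (SE 0.14, adjusted p = 0.0052). In both genes every CYGB+ replicate was below every NCE replicate. EGLN3 (-1.29), LDHA (-0.70) and KDM3A (-0.68) also fell. They encode an oxygen-sensing hydroxylase, a subunit of lactate dehydrogenase and a histone demethylase. NDRG1, a stress-responsive gene, rose by 1.26 (SE 0.23, adjusted p = 0.0186). With the slide as a block only PDK1 of these was called (-1.23, SE 0.24, adjusted p = 0.0124), P4HA1 was at -0.95 (adjusted p = 0.0596), and NDRG1 was at 0.35 (adjusted p = 0.868). EGLN3, LDHA and KDM3A were at -1.43, -0.21 and -0.88 in that fit (adjusted p = 0.438, 0.919 and 0.0632). Without the array that stands apart 7 of the 21 targets fell and 1 rose, with PDK1 at -1.10 and P4HA1 at -1.15. That fit called 1913 of all 22186 probes lower and 1995 higher.

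The windows of PDK1 and P4HA1 are shown beside that of BNIP3 because these target genes had the smallest adjusted p of their list, a choice made after their values were seen. They are the 250 bases before a RefSeq start on GRCh38.p14, chr2:172555840-172556089 (plus strand, the later of 2 starts, since the window of the earlier one holds no match) and chr10:73096867-73097116 (minus strand), with ACGTG on either strand in capitals.
PDK1: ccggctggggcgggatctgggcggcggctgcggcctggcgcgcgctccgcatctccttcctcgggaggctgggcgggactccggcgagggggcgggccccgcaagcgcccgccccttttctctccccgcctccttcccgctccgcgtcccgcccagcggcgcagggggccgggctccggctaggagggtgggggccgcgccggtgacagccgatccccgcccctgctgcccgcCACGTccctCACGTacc
P4HA1: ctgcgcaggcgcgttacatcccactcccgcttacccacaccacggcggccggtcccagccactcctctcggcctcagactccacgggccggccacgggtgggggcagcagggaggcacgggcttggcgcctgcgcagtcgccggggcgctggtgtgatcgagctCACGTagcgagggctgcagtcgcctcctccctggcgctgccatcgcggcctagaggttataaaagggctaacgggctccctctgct
ACGTG lay in 13 of the 26 windows of the target list (50%), and these covered 20 of its 22 genes. Of the other targets that fell, LDHA held it in the earlier of 2 windows, while EGLN3 and KDM3A held it in none. A match of 5 letters is a description of the sequence and not a measured binding site.

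The list counts depended on single replicates, as did the counts over all probes. Over the 6 lists, 4 genes were called higher and 8 lower, where 4.80% of all probes tested were called higher and 4.36% lower. Leaving out NCE replicate 1 gave 0 and 2, NCE replicate 2 gave 0 and 2, and NCE replicate 3 gave 2 and 1. Over all probes, these fits called 452 higher and 377 lower, 270 and 228, and 346 and 226. With all replicates 1064 and 968 were called. Leaving out CYGB+ replicate 1 gave 4 and 6, CYGB+ replicate 2 gave 2 and 2, and CYGB+ replicate 3 gave 2 and 3. Over all probes, these fits called 958 higher and 884 lower, 651 and 630, and 505 and 516. Without the array that stands apart 11 genes were called higher and 11 lower. Of all 22186 probes, that fit called 1995 higher and 1913 lower.

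**Figure D4:**
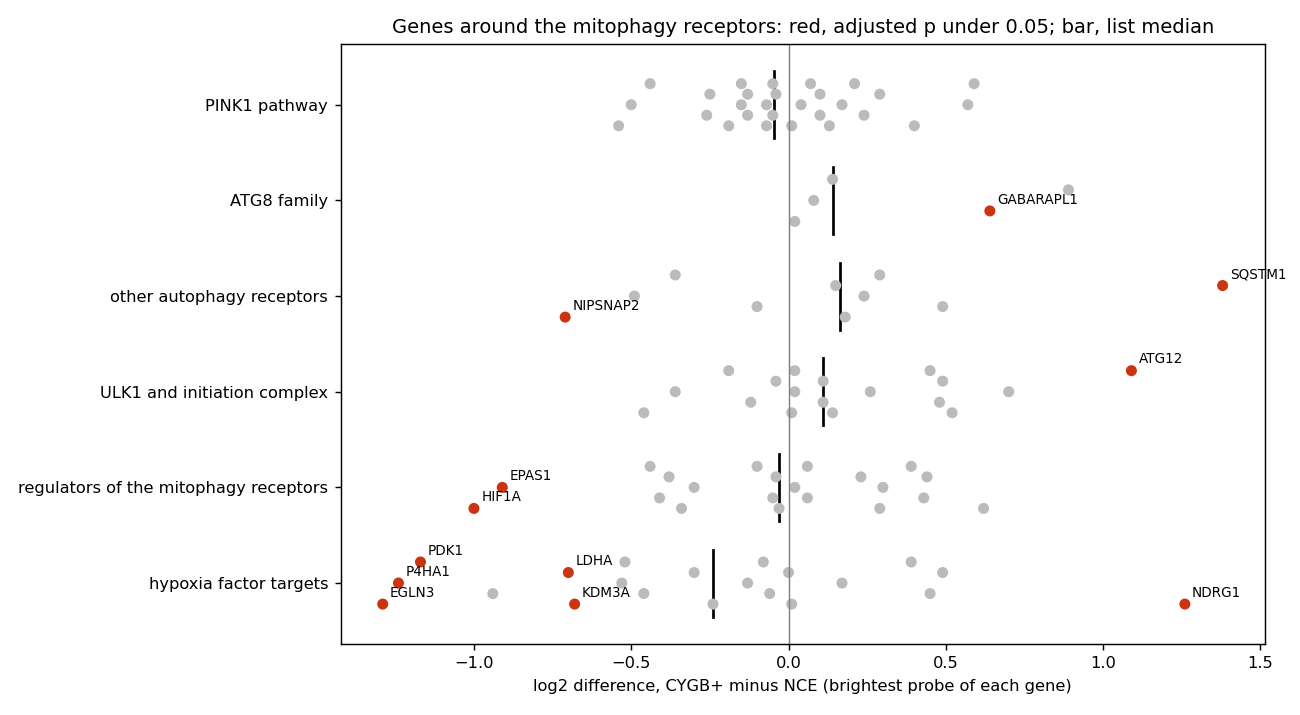
Log2 difference (CYGB+ minus NCE, x axis) of the tested genes in 6 lists (y axis), each point 1 gene by its brightest probe, with called genes in red and named and list medians as bars. HIF1A and EPAS1 and 5 of 21 hypoxia factor targets sit in the lower range with their names, while 0 of 28 genes of the PINK1 pathway is red.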

How the data were processed

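Total RNA of 6 biological replicates was read on 15 two-colour-format Agilent arrays, and the labels give every sample as Cy3. The authors deposited Feature Extraction (version 10.7.3.1) files with background-subtracted green intensity per spot, and a table of 15040 probes on a natural log scale, centred per probe, whose direction follows the green signal (median r = 0.971 between arrays' differences); its filter was not given in the sources used here. The methods name Cy5 for controls, against the labels, so the labels were followed. Here the green intensity was set to log2, outlier spots were left out, arrays were quantile normalised, spots and array repeats were averaged, and probes well above background on over 0.5 of the arrays of either group were tested with limma 3.58.1 in R 4.3.3 (lmFit, eBayes, Benjamini-Hochberg over all probes, called at adjusted p below 0.05). Of 27310 probes with a RefSeq accession, 25422 (93.1%) matched a gene. A listed gene is represented by its brightest probe. Named genes are all members, CYGB, and up to 3 called in each direction of a list, or all where 5 or fewer were called. The result of 1 gene of the lists is not reported here. The members and lists were chosen with earlier results of these data known. The fit was tested on simulated data. RNA came from 3 extractions, so p-values of the fits on replicate means measure the spread between these. The slide block was fitted to single arrays, so its p-values also rest on the spread between array repeats. Deviations of same-numbered replicates correlated at 0.22, 0.27 and 0.31, against at most 0.18, 0.23 and 0.17 with another number. The gap was small, and the numbers were taken as pairs only in an alternative fit. Slide and scan coincide, and the slide block used array repeats with a correlation of 0.216 within replicates. The number of arrays and of replicates limits the precision. Normexp, with offset 50, was run on the median signals. Scaling, background, filter, spot flags, test, replicate and slide blocks, and left-out arrays and replicates were varied. Promoter windows are from RefSeq (GRCh38.p14).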

Additional observations from a re-analysis of the deposited data

Results flagged for a closer look

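Among 26 sets of arrays (13 probes in 2 groups, CYGB included), 3 held an array whose gap to its nearest neighbour was large for the range of the set, where chance gives about 1 in 20. The BNIP3 signal on array repeat 1 of CYGB+ replicate 1 was 15.07, and the other 5 CYGB+ arrays lay between 12.57 and 13.01. The PINK1 signal on the same array was 10.77, and the others lay between 11.86 and 12.13. The PINK1 signal on array repeat 2 of NCE replicate 3 was 11.46, and the other 8 NCE arrays lay between 11.65 and 11.76.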

How the results depend on the processing

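Adjusted p of the BNIP3L probes ran from 0.0046 to 0.44 and from 0.0063 to 0.464 over the alternatives, and the calls held in 15 of 18 and 14 of 19 settings, the reported one included. The replicate block called the same number of members, 2, and changed no call among members and listed genes beyond those given for GABARAPL1, MAP1LC3A and NIPSNAP2, at 1397 probes higher and 1392 lower. Slide 2 alone gave 0 members, 21 probes higher and 15 lower, 0 list genes higher and 0 lower, BNIP3L at -0.83 and -0.81 and -0.02 between its probes. The slide block gave 297 and 395 probes and 0 and 2 list genes. The methods' t-test gave 398 and 338 and 1 and 3. No filter gave 635 and 597 and 5 list genes lower. Normexp gave 10 list genes higher and a mean over a gene's probes gave 7. The authors' table, which held only 1 of the 2 BNIP3L probes, gave 1 member called and 5 list genes lower. Without the array that stands apart (chosen after seeing the data) it was 1995 and 1913 probes and 11 list genes higher. Single replicates left out gave 0 to 2 members, 270 to 958 and 226 to 884 probes, and 0 to 4 and 1 to 6 list genes. For BNIP3L the range was -1.24 to -1.03 and -0.97 to -0.84. Uncalled differences that changed sign were FUNDC1 at 0.02 (75th percentile scaling), 0.01 (slide block, with and without the array) and 0.05 (slide 2), CALCOCO2 at -0.05 (75th percentile), -0.02 (authors' table), -0.10 and -0.01 (array left out, without and with the slide block), FKBP8 at -0.06 (outlier spots kept) and -0.09 (slide 2), TAX1BP1 at -0.01 (normexp) and 0.00 (array left out, slide block), BCL2L13 A_23_P102965 at -0.07 (the same), and CYGB at 0.09 (75th percentile) and 0.05 (authors' table). With single replicates left out FUNDC1 ran from -0.14 to 0.10, FKBP8 from -0.16 to 0.57, PINK1 from -0.05 to 0.36, CALCOCO2 from -0.10 to 0.07 and CYGB from -0.30 to 0.24. BCL2L13 A_23_P102965 was called under normexp (0.48, adjusted p = 0.0268). The causes were not tested. With 3 replicates a group the intervals were wide where replicates spread, from -1.16 to 0.62 for BNIP3 and from -0.79 to 1.12 for FKBP8.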

Other observations

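The red channel of the arrays was not used in any comparison, and the labels do not name the RNA in it. On the log2 scale after quantile normalisation of that channel alone, its BNIP3 signal was 12.65 to 12.83 on the 3 NCE arrays of array repeat 1. It was 15.54 to 15.84 on those of array repeat 2 and 15.56 to 15.79 on those of array repeat 3. On the CYGB+ arrays it was 15.23 to 15.86 for array repeat 1 and 15.45 to 15.53 for array repeat 2. BNIP3L was likewise lowest on NCE array repeat 1. Probe A_23_P134925 had red medians of 10.21, 12.50 and 13.16 on NCE array repeats 1, 2 and 3, and of 11.77 and 12.63 on CYGB+ array repeats 1 and 2. Probe A_33_P3396951 had red medians of 8.52, 10.46 and 10.85, and of 9.67 and 9.95. PINK1, CALCOCO2 and TAX1BP1 were also lowest on NCE array repeat 1, by smaller gaps. PINK1 had red medians of 11.76, 11.90 and 12.30 on NCE array repeats and of 11.96 and 12.57 on CYGB+ array repeats. OPTN, FKBP8 and the BCL2L13 probes were not lowest there. FUNDC1 did not follow this order either, with red medians of 10.28, 10.22 and 10.29 on NCE array repeats and of 10.14 and 10.17 on CYGB+ array repeats. No test was made, since the content of the channel is not known.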
